A study of Homo sapiens with 6 samples.

Results

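Nucleolar ribosome assembly genes encode the proteins that transcribe ribosomal RNA, modify it and fold it into the 2 ribosomal subunits. The group held 58 genes of the 58735 in the expression table. The members were chosen by their known roles in ribosome assembly, as a list drawn up after the lower levels of DDX21 and GNL3 with CBD had been seen in these same libraries. The difference between CBD and vehicle was thus in view when the list was made, so it is given for the members as a description with no test. Each gene was placed in 1 of 5 roles: 3 multifunctional nucleolar proteins, 4 RNA polymerase I subunits, 9 proteins of small nucleolar ribonucleoproteins (snoRNPs), 25 small-subunit factors and 17 large-subunit factors.

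The study sequenced RNA of HOK-16B, an immortalized human oral keratinocyte line, in 6 libraries. All 6 came from cells under inflammatory stimulation. A first group of 3 libraries had been given vehicle before the stimulus, and a second group of 3 had been given CBD (cannabidiol, a non-intoxicating cannabis compound). The stimulus, the CBD dose and the times are not in the labels, and no unstimulated group was analysed here. The samples' free-text descriptions carry line numbers from HOK-16B to HOK-21B, while titles and cell line tags give HOK-16B for all 6. Nothing in the labels says that replicates were separate cultures, so errors measure the spread between these libraries, which may be technical. The libraries held 18213784 to 22158614 fragments in genes. All 8 keratinocyte markers were above 1 FPKM, with summed levels of 10065 to 11844 FPKM in the vehicle libraries and 12346 to 12932 FPKM in the CBD libraries, which do not overlap. The single markers did not all move alike. KRT5, KRT14 and SFN were higher in every CBD library than in any vehicle library. KRT6A was lower, at 1324 to 1371 FPKM with vehicle and 1241 to 1315 with CBD, and KRT17, TP63, PERP and DSP overlapped. FPKM counts a gene's fragments per kilobase, scaled to the library's total. Summed markers of leukocytes (0 to 0.123 FPKM) and endothelium (0.0376 to 0.108 FPKM) were near 0, fibroblast markers summed to 6.94 to 7.70 FPKM with vehicle and 8.94 to 8.99 FPKM with CBD (1 of 6, COL1A1, above 1 FPKM), and melanocyte markers to 1.02 to 1.598 FPKM, with 1 of 3, PMEL, above 1 FPKM. The part of these shifts in the members' values was not tested. Vehicle replicate 1 stood apart over all genes: on the first principal component (47.7% of the variance) it was at -25.1, the other vehicle libraries at 0.739 and -9.36 and the CBD libraries at 10.3 to 12.7.

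Ribosome assembly starts in the nucleolus, where RNA polymerase I makes a long precursor of ribosomal RNA. Box C/D and box H/ACA snoRNPs, each a guide RNA with a fixed set of core proteins, methylate and pseudouridylate the precursor. The small-subunit processome, a large particle built from several subcomplexes, then binds its 5′ end, while a different series of factors assembles the large subunit. In growing keratinocytes, as in other dividing cells, transcription of many of these genes is known to follow MYC, which binds the E-box CACGTG.

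To show what the members' promoters share that the choice of the list did not use, the RefSeq promoter table (GRCh38.p14, from 250 bases before to 50 bases after a start) was searched for 4 motifs on both strands. It held 49 of the 58 members. The E-box letters CACGTG, a palindrome, stood in 20 of the 49 (40.8%), against 8.77% of all 27305 genes in the table and 12.9% of the 8771 protein-coding genes tested here. Windows of 30 bases around it are shown for 5 members that were lower with CBD in every library and for FBL and NOP10, which were not. Capitals mark the E-box, and the windows lie at chr10:68956604-68956633 (DDX21, plus strand), chr3:52686026-52686055 (GNL3, plus), chr2:28894658-28894687 (WDR43, plus), chr1:19251807-19251836 (MRTO4, plus), chr6:143843354-143843383 (LTV1, plus), chr19:39846356-39846385 (FBL, minus) and chr15:34343130-34343159 (NOP10, minus).
DDX21: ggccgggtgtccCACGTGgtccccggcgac
GNL3: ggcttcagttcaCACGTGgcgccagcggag
WDR43: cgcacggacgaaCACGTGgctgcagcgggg
MRTO4: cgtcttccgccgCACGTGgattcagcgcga
LTV1: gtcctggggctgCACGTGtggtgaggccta
FBL: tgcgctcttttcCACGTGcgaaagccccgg
NOP10: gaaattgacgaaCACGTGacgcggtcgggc

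The matches shown lay close to a start, from 31 bases before the second of the starts listed for DDX21 to base 29 counted from the start of LTV1. NOP10 holds a further match 170 bases before its start. Of the 19 E-box matches in members whose 30-base window lay inside the promoter, 16 lay within 60 bases of a start. The letters CCGGAAG, the core bound by ETS-family factors, stood in 23 of the 49 members (46.9%), against 12.2% of all genes in the table and 24.0% of the tested protein-coding genes. Windows of 29 bases are shown for 4 members of different roles, with the ETS letters of either strand in capitals, at chr10:68956099-68956127 (DDX21, plus), chr5:34915595-34915623 (BRIX1, plus), chr2:112542412-112542440 (POLR1B, plus) and chr5:111092326-111092354 (WDR36, plus).
DDX21: tcctgcttcccCCGGAAGtgccttgctac
BRIX1: cgccaccgagaCCGGAAGgaggcggcaca
POLR1B: tgcggccactaCTTCCGGcgtgtaccgag
WDR36: cgcagcgggcgCCGGAAGcggtgttgtgt

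GCATGCG, part of the NRF1 motif, stood in 4 members (8.16%), against 4.74% of all genes in the table and 7.90% of the tested protein-coding genes. TATAAA stood in 3 members (6.12%), against 13.99% of all genes in the table and 7.70% of the tested protein-coding genes. The median difference between CBD and vehicle, on the log2(FPKM + 1) scale, was -0.17 over the 19 tested members with an E-box and -0.25 over the 29 without. With the trend on GC content removed, a correction described below, these medians were -0.27 and -0.25. The members with the letters did not have the lower median as deposited. A match to these letters describes the sequence and is no evidence of binding.

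Over the list as a whole, levels were lower with CBD. Of the 58 members, 57 passed the filter of a mean of 1 FPKM, and 51 of these had a fitted difference below 0, against 52.6% of all 12517 genes tested. The count was 49 to 57 in the alternatives that tested the same genes. In 41 members the highest CBD library lay under the lowest vehicle library, and in none was the order the opposite; over all genes tested 21.9% did not overlap in the lower direction and 18.7% in the higher. The differences were small, with a median of -0.23 and a range from -0.53 to 0.42, beside a median of -0.01 over all genes tested. By group means, 19 members were lower by at least 20%, 26 by 10 to 20% and 7 by less. Relative to the mean of the vehicle libraries, the members' median was -0.20, -0.25 and -0.23 in the 3 CBD libraries and 0.03, -0.03 and 0.02 in the 3 vehicle libraries. On this median the CBD libraries were alike and below each of the 3 vehicle libraries. Without vehicle replicate 1 the median was -0.25, and 55 of 57 members were below 0, against 52.7% of all genes.

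**Figure D1:**
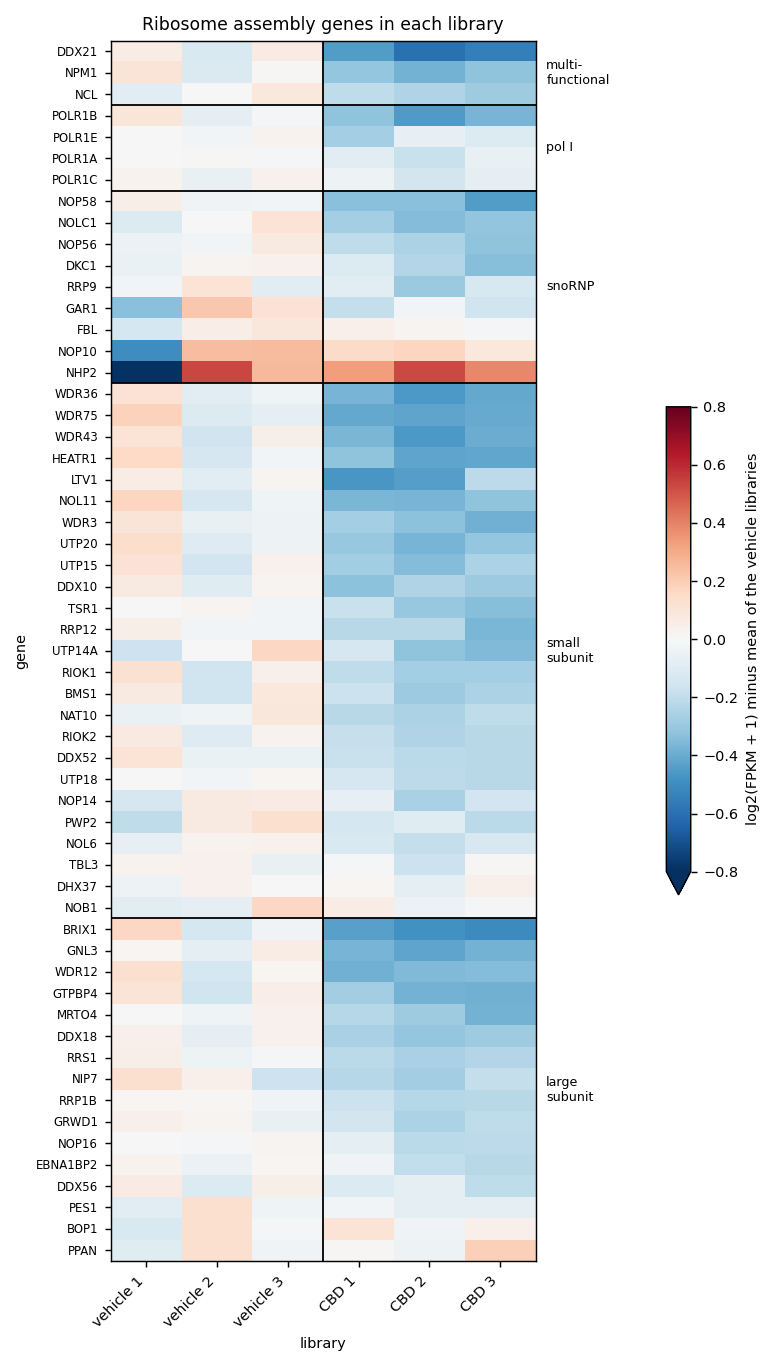
Each cell is log2(FPKM + 1) of a member (rows, by role) in a library (columns) minus the mean of the 3 vehicle libraries, blue for lower and red for higher. The 3 CBD columns are blue for most rows, and NHP2 and NOP10 are low in vehicle 1 (NHP2 there, at -0.79, is near the lower end of the scale).

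Only DDX21 and GNL3 passed the threshold of limma with Benjamini-Hochberg adjustment over all genes, both in the lower direction, and 0 members passed in the higher. Over all genes tested, 0.0959% were called lower and 0.256% higher, and nothing is read from the members' count since the list was made with these falls in view. At an unadjusted p under 0.05 in limma there were 39 members, all lower, against 16% of all genes lower and 15.4% higher. The 2 calls depended on single libraries and settings: without vehicle replicate 1 DDX21 was no longer called while 5 members were (background 0.176%), without vehicle replicate 2 there were 30 (background 8.66%), and without vehicle replicate 3 or any 1 of the 3 CBD libraries there were 0. With limma-voom on reads recovered from the FPKM, 31 members were called lower and 0 higher, against 6.68% and 7.26% of all genes. In RNA from a whole culture, fewer cells with a transcript and less of it per cell cannot be told apart.

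The members' differences went with GC content. Each gene was given the GC content of its longest transcript. Weighted by fragments per gene, the mean of this value was 48.9 to 49.7% in the vehicle libraries and 50.1% in each CBD library. The fragments' own sequences were not read. Over all genes the difference rank-correlated with transcript GC content (Spearman 0.66 across 12510 genes measured in the same libraries, which are not independent replicates). Across the 57 members the coefficient was 0.73. The 19 members poorest in GC had a median difference of -0.36 against -0.14 for all genes in their GC range, the middle 19 had -0.23 against -0.04, and the 19 richest had -0.13 against 0.12. At each level of GC content the members therefore lay about as far below the other genes of like GC content. When a smooth curve of each library's deviation on GC content was subtracted, 55 of 57 members were below 0, against 59% of all genes, and the members' median was -0.25 against -0.03. The spread among members narrowed, from an interquartile range of 0.18 to 0.12, and 0 members were called in either direction, against 0.0399% of all genes lower and 0.032% higher (48 members, all lower, had an unadjusted p under 0.05 in limma, against 14.1% of all genes lower and 6.58% higher).

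**Figure D2:**
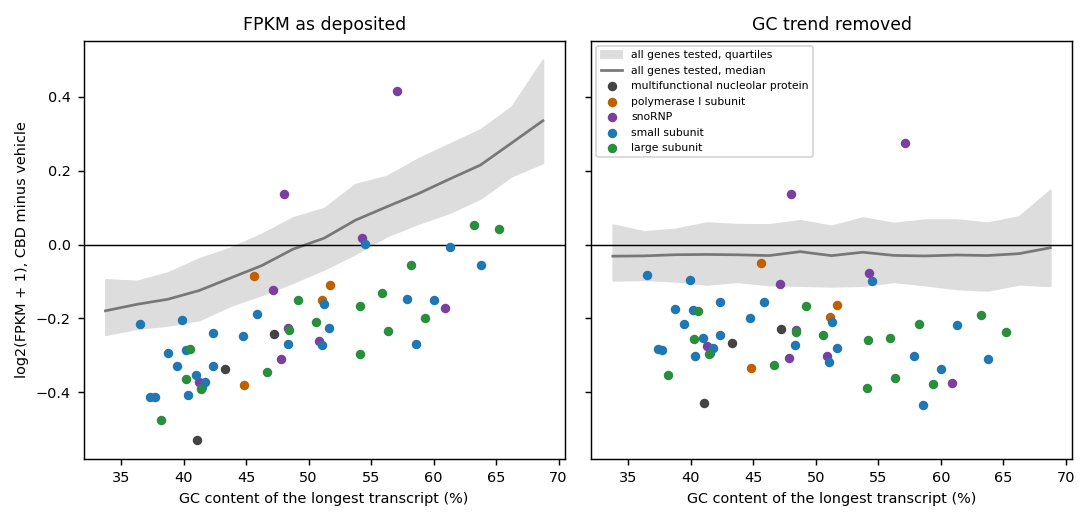
Fitted difference on the log2(FPKM + 1) scale (y axis) against GC content of the longest transcript in percent (x axis), as deposited (left) and with the GC trend removed (right); points are members coloured by role, the grey line and band the median and quartiles of all genes tested. As deposited, members at 40% and at 60% GC both lie mostly under the grey line, and at right 55 of 57 lie below 0.

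The multifunctional nucleolar proteins were among the 6 most abundant members. All 3 had lower levels in every CBD library than in any vehicle library, against 21.9% of all genes tested. In the GC range that holds DDX21 (36.5 to 42.3%), 1321 of the 2867 genes tested likewise did not overlap in the lower direction. In the range that holds NPM1 and NCL (43.3 to 51.3%), the count was 772 of 3546. DDX21 (chr10:68956128-68985073, plus strand, GRCh38), an RNA helicase that links polymerase I transcription to snoRNA function, stood at 55.0, 48.5 and 55.3 FPKM in vehicle replicates 1 to 3 and at 38.6, 34.6 and 35.9 FPKM in CBD replicates 1 to 3. The groups were well apart, and DDX21 fell by 0.53 ± 0.07 (SE) on the log2 scale, the group mean fell by 31.3%, and the difference was -0.43 with the GC trend removed. NPM1 (nucleophosmin, a histone and ribosomal protein chaperone of the outer nucleolus) had 232, 200 and 218 FPKM with vehicle and 174, 166 and 172 with CBD, a difference of -0.34 ± 0.07. NCL (nucleolin, which binds ribosomal RNA precursors) had 108.5, 116 and 123 FPKM with vehicle and 100, 97.6 and 94.6 with CBD, a difference of -0.24 ± 0.06. Neither passed the threshold, although the groups did not overlap in either gene. NPM1 has processed pseudogenes that can take reads from it or lend reads to it, so its level is uncertain.

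**Figure D3:**
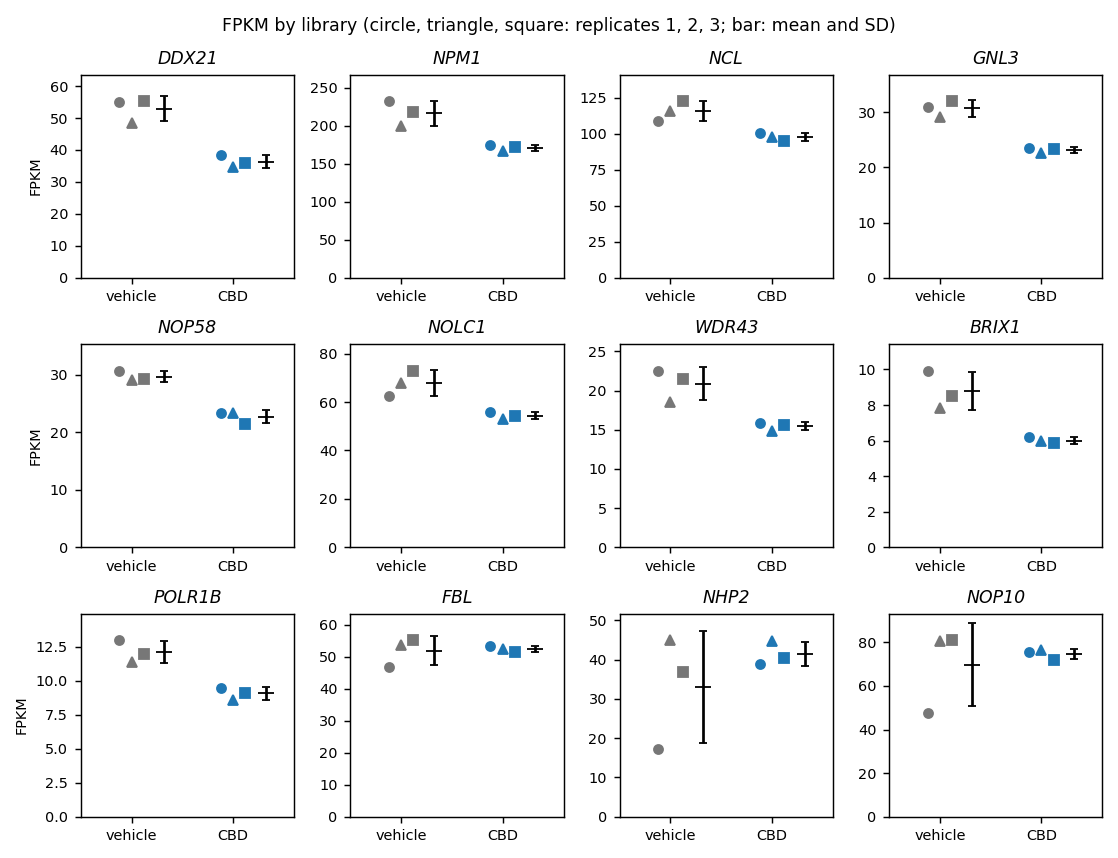
FPKM (y axis, from 0) of 12 members in each library (circle, triangle and square for replicates 1, 2 and 3), with the mean and SD of each group of 3 beside them. The groups are apart for DDX21, NPM1, NCL, GNL3, NOP58, NOLC1, WDR43, BRIX1 and POLR1B, and overlap for FBL, NHP2 and NOP10.

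The 4 polymerase I subunits had fitted differences of unequal size, all below 0. POLR1B, the second largest subunit, which forms the catalytic centre with POLR1A, had 12.98, 11.4 and 11.95 FPKM with vehicle and 9.48, 8.57 and 9.13 with CBD (-0.38 ± 0.06). The largest subunit, POLR1A, stood at 7.63, 7.68 and 7.57 FPKM and at 7.12, 6.63 and 7.28 FPKM (-0.11 ± 0.05). Both had groups that did not overlap, but the difference of POLR1B was the larger. POLR1E, part of a subunit pair needed for initiation and elongation, had 10.6, 10.4 and 10.8 FPKM with vehicle and 8.61, 10.1 and 9.74 with CBD (-0.15 ± 0.06). Its groups did not overlap either. POLR1C, which polymerases I and III share, had 2.69, 2.48 and 2.71 FPKM and then 2.52, 2.27 and 2.45, with groups that overlapped (-0.09 ± 0.07). The median of the 4 was -0.13, and -0.18 with the GC trend removed; POLR1B kept the lowest value there, at -0.33. In 3 of the 4 the groups did not overlap, in the lower direction, against 21.9% of all genes tested. None of the 4 was called.

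The snoRNP proteins were mixed, within both box C/D and box H/ACA particles. NOP56 and NOP58, the paired scaffold proteins of box C/D particles, stood at 26.1, 26.5 and 28.4 FPKM against 23.3, 22.5 and 21.4 (-0.26 ± 0.06), and at 30.7, 29.2 and 29.2 FPKM against 23.4, 23.4 and 21.5 (-0.37 ± 0.05). FBL (fibrillarin), the methyltransferase of the same particle, had 46.8, 53.7 and 55.2 FPKM with vehicle and 53.3, 52.6 and 51.4 with CBD, so that its groups overlapped (0.02 ± 0.07) and its sign changed in 5 of 19 alternative settings. Scaffold proteins and enzyme of 1 particle thus had different values, and this held with the GC trend removed, at -0.30 for NOP56, -0.27 for NOP58 and -0.08 for FBL; the difference between them was not tested. RRP9, a protein specific to the U3 particle, was at 13.1 ± 0.987 FPKM with vehicle and 11.5 ± 0.935 with CBD (SD, n = 3).

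In the box H/ACA set, NHP2, NOP10 and GAR1 rested on a single vehicle library, and DKC1 did not. DKC1 (dyskerin, the pseudouridine synthase) had 21.6, 22.8 and 23.1 FPKM with vehicle and 20.8, 19.0 and 17.5 with CBD (-0.23 ± 0.07, and -0.26 without vehicle replicate 1). NHP2, which binds the guide RNA, had 17.3, 44.96 and 36.96 FPKM with vehicle and 38.9, 44.8 and 40.4 with CBD (0.42 ± 0.31). NOP10, a small protein that bridges dyskerin and NHP2, had 47.7, 80.8 and 81.1 FPKM with vehicle and 75.7, 76.5 and 72.1 with CBD (0.14 ± 0.19). Vehicle replicate 1 was the low value in both, and it was also low for GAR1, the remaining core protein, at 7.25 FPKM against 11.1 and 10.3 in the other vehicle libraries. On the log2 scale its gap to the mean of the other vehicle libraries was -1.19 for NHP2, -0.75 for NOP10 and -0.50 for GAR1, the lowest of the members, followed by PWP2 at -0.30; these were singled out after their values were seen. Left out, the differences were 0.02 for NHP2, -0.11 for NOP10 and -0.29 for GAR1, and the snoRNP median moved from -0.17 to -0.26. RMND5B, on the other strand, overlaps 27.4% of the exonic length of NHP2, and its part in that low value was not tested. Over the 1210 genes tested with under 1000 exonic bases the median gap of that library was -0.02 and over the 2565 of the next length class it was -0.04, against 0.03 over the 8742 longer ones. The part of gene length in these values was not tested.

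NOLC1, the Nopp140 chaperone that binds both kinds of snoRNP, had 62.6, 68.0 and 73.0 FPKM with vehicle and 56.0, 53.0 and 54.2 with CBD, with no overlap (-0.31 ± 0.06). Of the 9 snoRNP proteins, 6 were below 0, against 52.6% of all genes tested. In 5 the groups did not overlap, in the lower direction, against 21.9% of all genes.

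Small-subunit factors had a median of -0.27, with 24 of 25 below 0, against 52.6% of all genes tested. In 19 the groups did not overlap, in the lower direction, against 21.9% of all genes. With the GC trend removed, the medians of the small-subunit and large-subunit factors were both -0.25. The subcomplex that is first to bind the precursor, known as UTP-A or t-UTP, was represented by HEATR1, WDR43, WDR75, UTP15 and NOL11. All 5 were lower in every CBD library than in any vehicle library. Their transcripts had 37.7 to 41.5% GC. Of the 2867 genes tested with 36.5 to 42.3% GC, 1321 likewise did not overlap in the lower direction. With the GC trend removed, the 5 lay at -0.29, -0.30, -0.29, -0.17 and -0.25 in the same order of genes. WDR75 had 15.8, 12.7 and 13.1 FPKM with vehicle and 10.15, 10.05 and 10.19 with CBD (-0.41 ± 0.08). WDR43 had 22.6, 18.5 and 21.5 FPKM and then 15.9, 14.9 and 15.6 (-0.41 ± 0.08). HEATR1, the largest protein of the subcomplex, had 10.7, 8.56 and 9.35 FPKM and then 7.42, 6.83 and 6.89 (-0.39 ± 0.08). These 3 and NOL11 (24.9987, 20.1 and 21.5 FPKM with vehicle and 17.0, 16.9 and 17.5 with CBD, -0.35 ± 0.08) had their highest value in vehicle replicate 1; without it their differences lay between -0.35 for WDR43 and -0.27 for NOL11. UTP15 was also highest in vehicle replicate 1, and its difference was -0.29 with all libraries and -0.23 without that one. LGALS8 on the other strand and AL359921.1 on the same strand together overlap 23.2% of the exonic length of HEATR1.

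The UTP-B subcomplex, which follows, was less even as deposited. WDR36 had 10.7, 9.12 and 9.51 FPKM with vehicle and 7.32, 6.82 and 7.08 with CBD (-0.41 ± 0.07). Its partners lay at -0.33 (WDR3), -0.19 (UTP18), -0.15 (PWP2) and -0.06 (TBL3). The order followed GC content, from 37.3% in WDR36 to 63.8% in TBL3, with UTP18 at 45.9% and PWP2 at 60.01%. With the GC trend removed, the 5 values were -0.28, -0.21, -0.16, -0.34 and -0.31 in the same order of genes, so the 2 that had been nearest 0 were then the lowest.

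Factors that act later on the small subunit were mostly lower as well. LTV1, an export and release factor of the pre-40S particle, had 8.51, 7.60 and 8.25 FPKM with vehicle and 5.61, 5.71 and 6.88 with CBD (-0.37 ± 0.08); 34.8% of its exonic length overlaps annotated genes on its own strand. NOB1, the nuclease of the final cut in small-subunit ribosomal RNA, was at 15.3, 15.5 and 18.4 FPKM with vehicle and at 17.1, 15.8 and 16.2 with CBD, with full overlap (0.00 ± 0.08). It was the one small-subunit factor not below 0, and its sign changed in 8 of 19 alternative settings. The atypical kinases RIOK1 and RIOK2, which act on the same cytoplasmic particle, were at -0.25 and -0.22, and TSR1, a GTPase-like assembly factor, at -0.27. Among enzymes of the nucleolar stage, the acetyltransferase NAT10 was at -0.22, the helicases DDX10 and DDX52 at -0.29 and -0.20 and the GTPase BMS1 at -0.24, all with groups that did not overlap. The helicase DHX37, which releases the U3 snoRNA, was at -0.01 and overlapped (6.15, 6.53 and 6.36 FPKM with vehicle and 6.42, 5.95 and 6.57 with CBD). Its transcript has 61.3% GC, and it was at -0.22 with the GC trend removed.

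**Figure D4:**
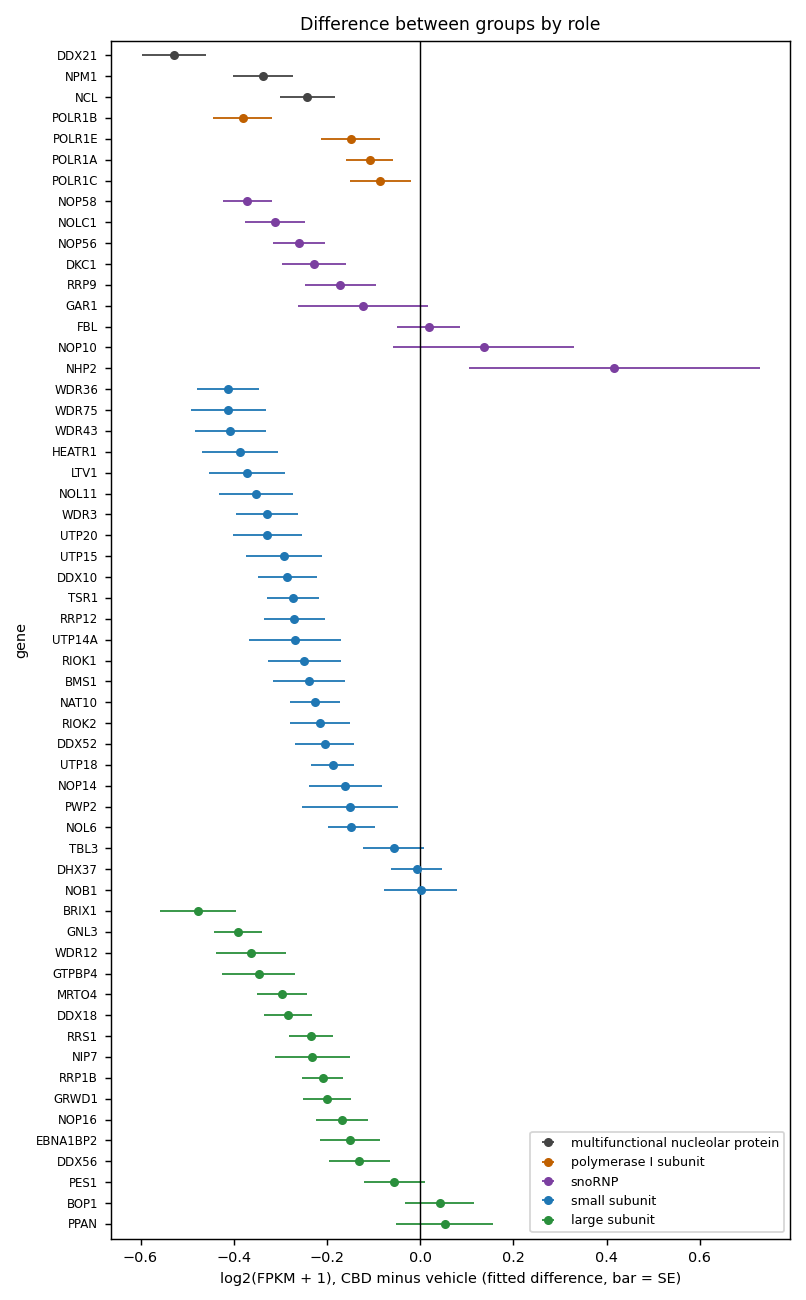
Fitted difference of each of the 57 tested members, CBD minus vehicle on the log2(FPKM + 1) scale (x axis), by role and in order within it; bars are the standard error. Values run from -0.53 for DDX21 to 0.42 for NHP2, whose bar is the widest, and 51 of 57 points lie left of 0.

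The 16 large-subunit factors tested had a median of -0.22, with 14 below 0, against 52.6% of all genes tested. In 11 the groups did not overlap, in the lower direction, against 21.9% of all genes. GNL3 (nucleostemin, a GTP-binding protein of proliferating and stem cells; chr3:52681156-52694492, plus strand, GRCh38) had 30.95, 29.04 and 32.01 FPKM with vehicle and 23.5, 22.6 and 23.3 with CBD. It fell by 0.39 ± 0.05 on the log2 scale, its group mean fell by 24.5%, and it was at -0.30 with the GC trend removed. BRIX1, a Brix-domain factor of the early pre-60S particle, had a lower fitted difference but a wider spread, with 9.94, 7.85 and 8.53 FPKM with vehicle and 6.199, 5.95 and 5.85 with CBD (-0.48 ± 0.08). It did not pass the threshold over all libraries, and did without vehicle replicate 1. MRTO4, which holds the place of a stalk protein on the pre-60S particle, had 19.4, 19.0 and 19.9 FPKM and then 16.5, 15.7 and 14.7 (-0.30 ± 0.05). GTPBP4, a nucleolar GTPase, had 13.7, 11.3 and 13.2 FPKM and then 10.3, 9.51 and 9.50 (-0.35 ± 0.08). No library of 1 group reached the range of the other in these 4 genes.

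The PeBoW complex, made of PES1, BOP1 and WDR12 and needed for large-subunit ribosomal RNA maturation, was split as deposited. WDR12 had 6.28, 5.02 and 5.71 FPKM with vehicle and 4.09, 4.20 and 4.22 with CBD (-0.36 ± 0.08). PES1 was at -0.06 ± 0.07 and BOP1 at 0.04 ± 0.07, and both overlapped between groups; the sign of BOP1 changed in 4 of 19 alternative settings. GC content was 40.2% in WDR12, 58.2% in PES1 and 65.2% in BOP1, and with the GC trend removed the 3 subunits lay at -0.26, -0.21 and -0.24. GC-rich members that were already lower moved further from 0, among them RRS1, a partner of the 5S particle (56.3% GC, -0.23 as deposited and -0.36 with the trend removed), and the WD-repeat protein GRWD1 (59.3% GC, -0.20 and -0.38).

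For PPAN and NOP2, the overlap with other annotated genes limits what their values mean. PPAN had 1.14, 1.499 and 1.24 FPKM with vehicle and 1.30, 1.22 and 1.61 with CBD (0.05 ± 0.10), and its sign changed in 4 of 19 alternative settings. Other genes overlap 59.8% of its exonic length, among them the readthrough gene PPAN-P2RY11, which is listed at 0 in all 6 libraries. NOP2, a methyltransferase of large-subunit ribosomal RNA, was below the filter, at 0.121, 0.185 and 0.196 FPKM with vehicle and 0.0715, 0.0461 and 0.0620 with CBD, or 13, 19 and 18 reads against 8, 5 and 6. Of its exonic length, 54.4% overlaps AC006064.6 on the same strand, also listed at 0 in all 6 libraries. How strand and shared reads were handled is unknown here, and their part in these values was not tested. In all, 10 members had at least 20% of their exonic length overlapped by another gene.

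Per length and as means over all 6 libraries, levels of the tested members covered a wide range, from NPM1 at 194 FPKM and NCL at 107 FPKM down to PWP2 at 1.90 and PPAN at 1.34 FPKM. NOP10 (72.3), NOLC1 (61.1), FBL (52.2) and DDX21 (44.7 FPKM) came next after NCL, and within the vehicle group DDX21 and FBL (52.9 ± 3.86 and 51.9 ± 4.47 FPKM) did not differ beyond their spread. Within a particle, mean levels were unequal: NOP10 at 72.3, NHP2 at 37.2, DKC1 at 20.8 and GAR1 at 9.04 FPKM form 1 particle, and the 3 proteins of PeBoW ranged from 4.92 FPKM for WDR12 to 15.9 for BOP1. A total of 10 members hold small nucleolar or Cajal body RNA genes within their span, 29 in all, such as SNORD20 and SNORD82 in NCL and SNORD56 and SNORD57 in NOP56. These 10 hosts had a median difference of -0.27, and the other 47 tested members had one of -0.22.

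Other genes of the pathway were taken from a list of 101 further assembly factors, of which 99 passed the filter. In limma 0 were called in either direction, while 51 were lower and 4 higher at an unadjusted p under 0.05 (16% and 15.4% of all genes). With limma-voom 29 were called lower and 1 higher, against 6.68% and 7.26% of all genes. Below 0 were 75 of the 99, against 52.6% of all genes, and groups did not overlap in the lower direction in 54 and in the higher in 5, against 21.9% and 18.7% of all genes. Their median was -0.15. By role the median was -0.12 for 13 other genes of the polymerase I machinery, -0.12 for 9 other snoRNP genes, -0.13 for 34 other small-subunit and -0.19 for 43 other large-subunit factors. Removing the GC trend left 87.9% of them below 0, against 59% of all genes. The lowest 3 were PAK1IP1, a WD-repeat factor of the large subunit (15.6, 11.1 and 11.7 FPKM with vehicle and 8.71, 8.402 and 8.35 with CBD, -0.53 ± 0.12), the processome factor ESF1 (13.4, 11.04 and 11.3 FPKM and then 7.91, 7.99 and 8.14, -0.51 ± 0.08), and SDAD1 of the large subunit (17.6, 15.2 and 15.6 FPKM and then 12.4, 10.9 and 10.9, -0.47 ± 0.08).

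The 3 highest of these other genes were TSR2, an escort of a small-subunit ribosomal protein (18.9, 26.6 and 23.5 FPKM with vehicle and 26.2, 28.1 and 27.8 with CBD, 0.25 ± 0.11), the large-subunit factor NOP53 (16.4, 18.5 and 15.9 FPKM and then 20.6, 21.1 and 19.1, 0.25 ± 0.07) and WDR18 of the rixosome (14.4, 19.2 and 16.8 FPKM and then 19.4, 19.9 and 20.6, 0.24 ± 0.10). Their transcripts had 53.4%, 61.1% and 65.9% GC, and with the GC trend removed they lay at 0.17, 0.04 and -0.05. The 3 lowest had 40.3%, 35.4% and 40.4% GC, and lay at -0.42, -0.37 and -0.36.

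**Figure D5:**
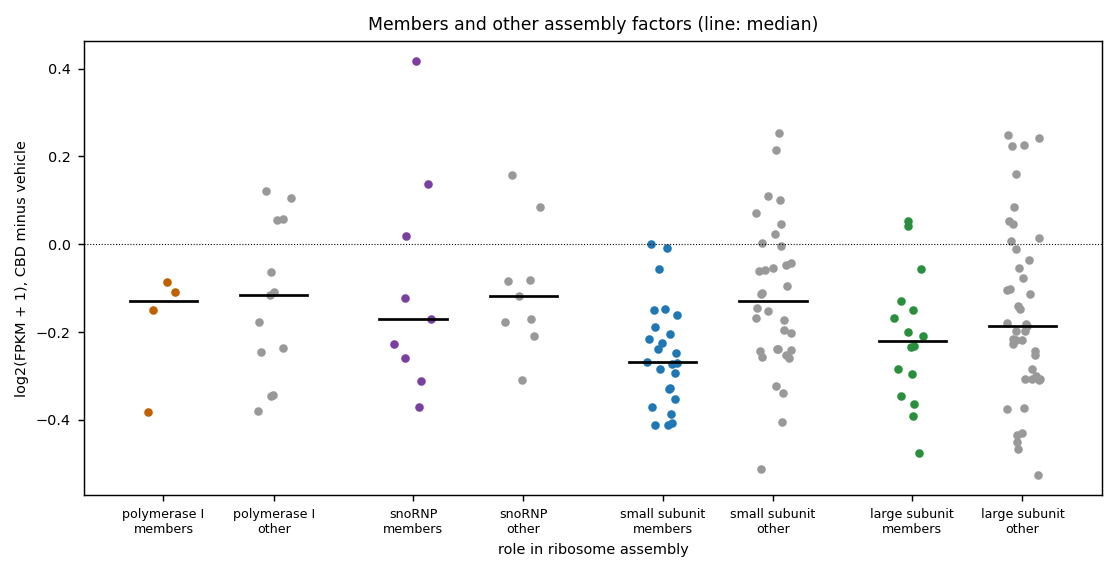
Fitted difference, CBD minus vehicle on the log2(FPKM + 1) scale (y axis), of tested members (coloured) and of the other pathway genes (grey) in 4 roles; black lines are medians. The 4 grey medians, from -0.12 to -0.19, lie below 0, as do the coloured ones.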

How the data were processed

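RNA-seq of 6 libraries, 3 vehicle and 3 CBD by the treatment label, was deposited as 1 table of FPKM per gene and library. Per the file headers the values are FPKM with no pooling, with HISAT2 2.0.5 as aligner and featureCounts 1.5.0-p3 as counter, per the submitters' processing notes; build, annotation, strand setting and filters are not given in the sources used here. All 58735 identifiers were found in GENCODE 29. FPKM times exonic length gave whole fragments for 100% of the values (tolerance 0.01), hence the totals of 18213784 to 22158614 fragments; a floor of 3 reads covers counting error only.

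Differences were fitted on log2(FPKM + 1) for 12517 genes with a mean of at least 1 FPKM, with limma 3.58.1 in R 4.3.3, group as the only term, a trend in the variance prior, two-sided, Benjamini-Hochberg adjustment over all genes and a threshold of 0.05. The fit was tested on simulated data. Alternatives changed the pseudocount, filter, scaling, prior, block, library set, GC trend (lowess, span 0.3, on GC content of the longest transcript) or used limma-voom on recovered reads. FPKM is a relative measure: a change in abundant genes moves the rest, and GC-dependent yield stays in it.

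Members and lists were chosen with earlier results of these data known. Values per library are given for all multifunctional and polymerase I members; in the other roles for the 5 with the largest difference, the most abundant, and the largest of opposite sign; and for the 3 lowest and 3 highest other pathway genes. FBL, GAR1, DHX37 and NOP2 were added after their values were seen. Sequences are from RefSeq promoters (GRCh38.p14), without POLR1E, NOP58, NOLC1, DDX52, RRP12, BOP1, RRP1B, RRS1 and DDX18.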

Additional observations from a re-analysis of the deposited data

How the results depend on the processing

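Neither DDX21 nor GNL3 changed direction in any alternative, and members called higher numbered 0 in all of them. Over all genes, 32 were called higher and 12 lower. The higher and lower counts were 0 and 0 with no filter, 427 and 305 at a mean of at least 5 FPKM, 56 and 17 with median-ratio scaling, 2 and 2 with the same FPKM sum in every library, 54 and 19 with quantile normalization, 0 and 1 with no trend in the prior, 909 and 836 with limma-voom and 4 and 5 with the GC trend removed. Leaving out 1 library gave 0 to 1267 higher and 0 to 1084 lower. Members called lower, 2 as reported, numbered 0 with no filter, 22 of 46 at 5 FPKM (background 4.19%), 0 with the same sum and 0 with no trend. They numbered 31 with limma-voom (background 6.68%), 0 with the GC trend removed and 0 to 30 with 1 library left out (30 without vehicle replicate 2, background 8.66%). Members with an unadjusted p under 0.05 in limma or limma-voom ran from 32 of 46 at 5 FPKM to 48 of 57 with the GC trend removed. The shares of all genes were 16% lower and 15.4% higher as reported, and 14.1% and 6.58% with the GC trend removed. The share at 5 FPKM is not given here. Other pathway genes called lower, 0 as reported, numbered 19 at 5 FPKM (background 4.19%), 1 with median-ratio scaling (0.136%) and 29 with limma-voom (6.68%). With 1 library left out they numbered 0 to 32 (32 without vehicle replicate 2, background 8.66%). Those called higher numbered 1 with limma-voom (background 7.26%) and 0 to 4 with 1 library left out (4 without vehicle replicate 2, background 10.1%).

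Deviations of same-numbered libraries from their group means correlated at -0.0027, 0.0523 and 0.0235, and those of differently numbered ones at -0.0522 to 0.0282. These values do not settle whether the numbers mark pairs, and the labels state no pairing. The replicate block gave 0 higher and 0 lower over all genes and 0 members, and the same counts with the GC trend removed. Medians moved with the GC trend removed, with or without the block: to -0.27 for multifunctional proteins, -0.18 for polymerase I and -0.25 for the large subunit. The snoRNP median was -0.26 without vehicle replicate 1. That of other pathway genes was -0.18 at a pseudocount of 0.1, -0.12 at 5 FPKM and -0.18 with limma-voom. The alternative chosen after seeing the data, GC trend removed without vehicle replicate 1, gave 0 calls over all genes and members, 57 of 57 members below 0 (58.6% of all genes), and medians of -0.28, -0.17 and -0.28 for multifunctional, polymerase I and snoRNP members. The sign of 9 members changed in 1 to 8 of the 19 alternatives: FBL, NHP2, NOP10, TBL3, DHX37, NOB1, BOP1, PES1 and PPAN. The causes were not tested.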
